A study of Mus musculus with 20 samples.

Results

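The 6 genes described here, Ptprv, Shisa3, Klk1, Nat8l, Heg1 and Dmrta2, were chosen by the fold rise of their RNA from mouse embryonic stem (ES) cells to induced pluripotent stem (iPS) cells, as rises among the largest measured. The predicted gene Gm3168 and some models of low abundance rose more and are not among them. They are 6 of the 10334 genes named in the authors' deposited expression table and are counted through 7 transcript models of 55419. Since their difference between iPS and ES cells chose them, that difference is given as a description and without a test. The same genes were tested in 2i medium and in neural progenitor cells, in libraries that did not enter the iPS over ES difference. A limit on abundance over all 10 libraries, under which the genes lead the order, does include those libraries. The limit favours genes with high levels in them, so these tests are not fully free of the choice.

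The study measured RNA and chromosome folding in 5 groups of mouse cells on a 129SvJae x C57BL/6 background, with 2 RNA libraries per group. ES cells were of the male V6.5 line, grown in medium for pluripotent cells with leukemia inhibitory factor (LIF), whose serum content the labels do not give. ES cells in 2i were the same line in serum-free medium with LIF and the kinase inhibitors CHIR99021 and PD0325901. Neural progenitor cells (NPC) were taken on postnatal day 1 from the whole brain of Sox2-eGFP mice, were grown as neurospheres with growth factors, and were then plated on poly-D-lysine and laminin. The iPS cells were derived from primary NPC with the Sox2-eGFP genotype and grown in medium with fetal bovine serum and LIF, and iPS cells in 2i were moved to the serum-free inhibitor medium. All 4 pluripotent groups were expanded on inactivated mouse embryonic fibroblasts, which a later passage on gelatin was meant to take away. Source, line, genotype and, outside 2i, medium all differ between iPS and ES cells and cannot be told apart. The labels do not say how many clones or animals were used, or that replicates are separate cultures, so the p-values cover the spread among these libraries alone, and that spread may be technical.

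The genes have different roles. Ptprv encodes a receptor-type tyrosine phosphatase known from bone, testis and early embryonic cells. Receptor phosphatases remove phosphate from tyrosines at the cell membrane and so act against tyrosine kinases. Shisa3 belongs to the Shisa family of membrane adaptors, whose founding member holds Frizzled and FGF receptors back in the endoplasmic reticulum and thereby dampens Wnt and FGF signalling. Klk1 is tissue kallikrein, a secreted serine protease that frees kinin peptides. Nat8l is the synthase of N-acetylaspartate, a metabolite made in neurons from acetyl-CoA and aspartate. Heg1 is a transmembrane receptor of endothelial junctions that binds the KRIT1 protein of the CCM complex, and Dmrta2 is a DM-domain transcription factor of progenitors in the dorsal forebrain.

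Promoter windows from RefSeq (GRCm38.p6, 250 bases before to 50 after the gene start) were found for 4 of the 6 genes, and they are printed because they divide the genes by CG content. Each is read 5′ to 3′ on the plus strand with every CG dinucleotide in capitals.
Shisa3, chr5:67607633-67607932: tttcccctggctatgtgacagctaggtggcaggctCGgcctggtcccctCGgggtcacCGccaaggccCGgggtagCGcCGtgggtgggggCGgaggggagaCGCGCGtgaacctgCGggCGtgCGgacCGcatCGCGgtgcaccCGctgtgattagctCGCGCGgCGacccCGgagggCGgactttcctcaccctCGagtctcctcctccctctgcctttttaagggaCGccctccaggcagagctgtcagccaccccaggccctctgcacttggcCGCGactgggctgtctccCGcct
Heg1, chr16:33684216-33684515: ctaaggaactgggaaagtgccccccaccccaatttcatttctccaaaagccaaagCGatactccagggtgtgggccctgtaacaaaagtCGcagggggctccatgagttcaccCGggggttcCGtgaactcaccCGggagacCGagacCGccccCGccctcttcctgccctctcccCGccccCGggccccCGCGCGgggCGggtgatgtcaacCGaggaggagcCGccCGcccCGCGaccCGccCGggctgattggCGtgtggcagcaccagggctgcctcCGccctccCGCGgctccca
Dmrta2, chr4:109977775-109978074: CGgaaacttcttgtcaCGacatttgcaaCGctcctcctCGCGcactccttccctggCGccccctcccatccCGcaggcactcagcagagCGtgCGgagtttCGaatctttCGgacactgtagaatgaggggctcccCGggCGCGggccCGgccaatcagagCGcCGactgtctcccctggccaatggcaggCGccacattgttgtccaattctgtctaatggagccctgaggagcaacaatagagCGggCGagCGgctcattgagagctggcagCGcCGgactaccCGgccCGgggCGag
Klk1, chr7:44225110-44225409: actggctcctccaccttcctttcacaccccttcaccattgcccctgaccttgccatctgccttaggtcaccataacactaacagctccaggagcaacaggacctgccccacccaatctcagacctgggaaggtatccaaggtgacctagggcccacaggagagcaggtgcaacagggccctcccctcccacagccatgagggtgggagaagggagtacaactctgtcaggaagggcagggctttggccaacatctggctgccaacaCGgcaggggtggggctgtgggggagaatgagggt

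Shisa3, Heg1 and Dmrta2 had windows rich in CG, and Klk1 did not. The window of Shisa3 held 28 CG dinucleotides, that of Heg1 held 25 and that of Dmrta2 held 26, against a median of 7 over 32851 RefSeq windows of the same length. Fewer were held by 85.8%, 81.6% and 83.1% of all windows, respectively. The Klk1 window held a single CG, and 5.43% of all windows held fewer. Its GC content of 60% was nonetheless above the median of 52.7%, while the other windows had 70% (Shisa3), 69% (Heg1) and 63.7% (Dmrta2).

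**Figure D1:**
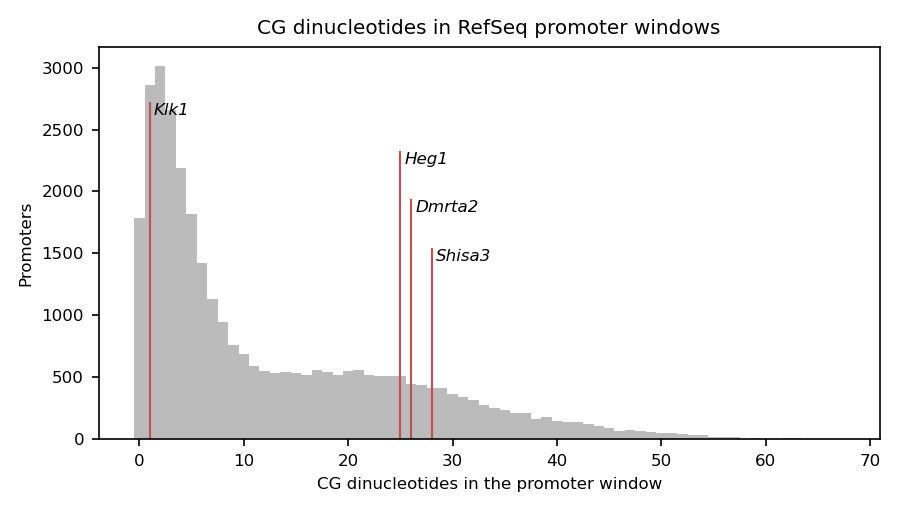
Number of CG dinucleotides in 32851 RefSeq promoter windows of 300 bases (x axis) against the number of windows with that count (y axis, grey bars). Red lines mark the 4 genes that have a window: Klk1 lies at 1, and Heg1, Dmrta2 and Shisa3 lie at 25, 26 and 28; line heights only separate the names.

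Short motifs were searched on both strands of these windows, and no match to one motif overlapped a match to another. The GC box GGGCGG occurred 8 times in the window of Heg1, between 103 bases before and 31 bases after the start with 1 pair of matches overlapping, and 2 times in that of Shisa3. It was in 35.7% of all windows. CCACCC, a core of Krüppel-like factor sites, occurred 3 times in the window of Klk1, 2 times in that of Shisa3 and 1 time in that of Heg1, and in 31.5% of all windows. None of the 4 windows held the TATA box TATAAA, present in 13.6% of all windows, or the E-box CACGTG, present in 7.15%. None held the TCF/LEF letters ATCAAAG, present in 3.73% of all windows, or the octamer ATGCAAAT, present in 1.74%. The Dmrta2 window held none of the 6 motifs. No binding or methylation data were used here, so these matches describe letters alone.

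In mm9, the build of the counts, the deposited table places Ptprv at chr1:137005075-137029152, Shisa3 at chr5:67999122-68003511 and Klk1 at chr7:51480807-51484987. Nat8l lies at chr5:34338633-34348565, Dmrta2 at chr4:109650630-109656289 and the longer Heg1 model at chr16:33684552-33768281. A second Heg1 model shares the start and ends at 33722999. The spans are whole transcript models with their exons, introns and UTRs. None of the genes lay in the 7 regions measured for chromosome folding, the nearest of which on the same chromosome was 53.8 to 99.0 Mb away, with none on chromosomes 1 and 7. RefSeq lists Ptprv as a transcribed pseudogene. Ptpn7 overlaps Ptprv, Gm10109 overlaps Klk1, and the antisense Dmrta2os overlaps Dmrta2. The strand setting of the counting is not given in the sources used here, so reads of such partners cannot be told apart. Klk1 also has near-identical paralogs in its cluster, which makes its count uncertain.

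Reads assigned to transcript models ranged from 1.15M to 17.3M per library, with the fewest in NPC replicate 1, and reads in no model from 26.5% to 86.6%. The share in no model was 75.8% and 68.4% in iPS cells, 65% and 37.4% in iPS cells in 2i, 26.5% and 81.5% in ES cells, and 35.7% and 28.2% in ES cells in 2i. Its part in the results was not tested. Log2 levels of the 2 replicates correlated across genes at 0.972 to 0.981, and every pair differed by more than counting noise. Levels below are CPM, read counts brought to a common library size with TMM factors, which are not divided by gene length and are compared only within a gene. In bulk RNA, fewer cells of a type and less RNA per cell cannot be told apart.

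All 6 genes had their highest mean in iPS cells, and the groups below iPS divided them by their level in NPC. Ptprv and Shisa3 were intermediate in NPC, Klk1 was not counted there, and Nat8l, Heg1 and Dmrta2 were higher in NPC than in iPS cells in 2i. Both iPS libraries lay above the other 8 for each gene except Dmrta2, whose iPS and NPC libraries overlapped. The same held with RLE scaling and in the authors' deposited log2 table. The choice of the genes by iPS over ES cells favours this order, so it is a description. Its share over all models was not computed. The mean in iPS cells in 2i lay below that in iPS cells for each of the genes, by 5.46-fold (Heg1) to 10.4-fold (Nat8l).

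**Figure D2:**
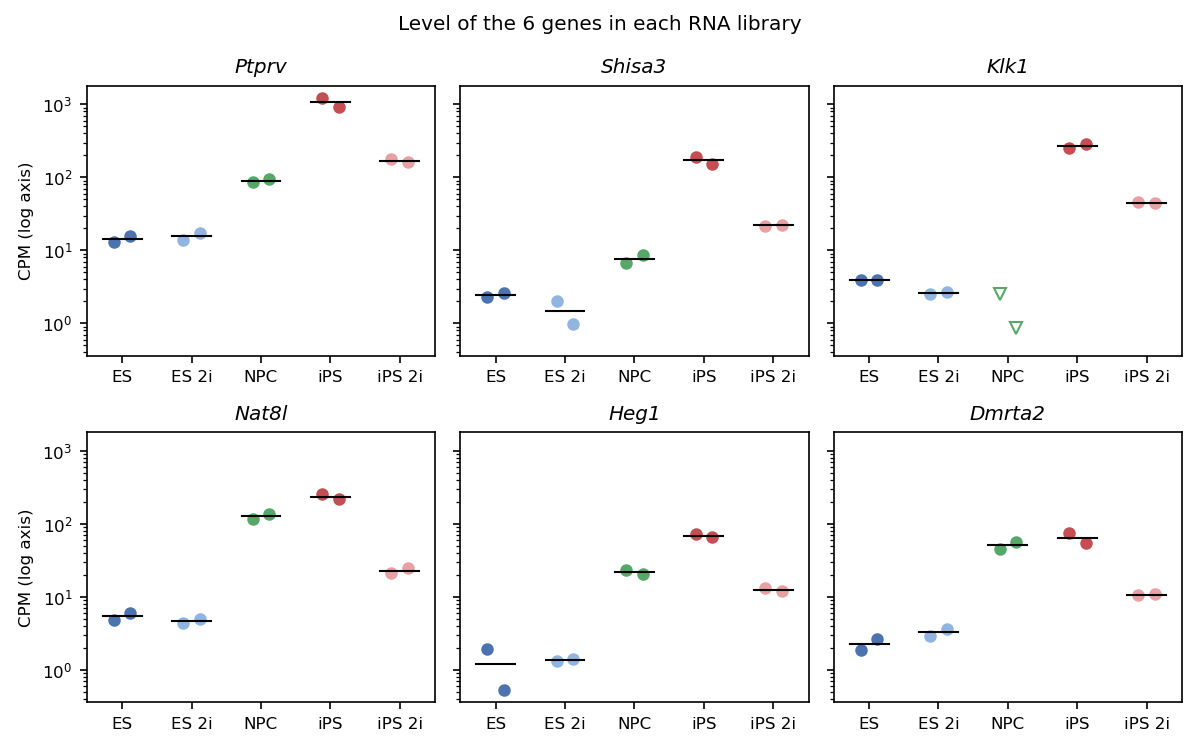
CPM of the 6 genes (y axis, log scale) in each of the 10 RNA libraries, by group (x axis). Points are libraries, lines are means of 2, and open triangles mark the value that 3 counts would give where Klk1 had 0 counts. The iPS libraries are highest for each gene except Dmrta2, where NPC libraries reach 57.1 CPM and the lower iPS library has 55.2.

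Ptprv, the receptor phosphatase, had 1213 and 927 CPM in iPS cells and 178 and 162 in iPS cells in 2i. NPC had 86.2 and 93.6 CPM, ES cells 13.1 and 15.8, and ES cells in 2i 13.7 and 17.4. The iPS libraries were far above all others, the levels stepped down through iPS cells in 2i and NPC, and the ES groups overlapped each other. The mean in iPS cells was 74.1 times that in ES cells and 11.9 times that in NPC. In 2i medium, iPS cells had 170 ± 11.1 CPM (SD, n = 2) and ES cells 15.6 ± 2.60, a log2 fold change of 3.43 ± 0.159 (SE) in edgeR's quasi-likelihood test (adjusted p = 1.54e-16). NPC exceeded ES cells in 2i by 2.52 ± 0.168 on the log2 scale (edgeR adjusted p = 2.82e-14).

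Shisa3, the Shisa-family adaptor, had the same 3 upper groups in the same order as Ptprv. It had 192 and 153 CPM in iPS cells, 21.7 and 22.5 in iPS cells in 2i and 6.70 and 8.69 in NPC, the last from 8 and 30 reads. ES cells had 2.30 and 2.63 CPM, and ES cells in 2i 2.00 and 0.974. No groups overlapped, and ES cells in 2i were lowest. The mean in iPS cells was 69.9 times that in ES cells and 22.4 times that in NPC. In 2i medium the log2 fold change of iPS over ES cells was 3.69 ± 0.231 (edgeR adjusted p = 2.45e-13). NPC exceeded ES cells in 2i by 2.27 ± 0.339 on the log2 scale (edgeR adjusted p = 7.89e-07).

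Klk1, tissue kallikrein, differed from the other genes in having no read in either NPC library. Levels in iPS cells were 252 and 283 CPM, those in iPS cells in 2i 45.9 and 44.1. ES cells had 3.87 and 3.95 CPM and ES cells in 2i 2.51 and 2.73. The pluripotent groups did not overlap, and both iPS groups stood far above both ES groups. The iPS mean was 68.3 times the ES mean. A floor of 3 counts per library corresponds to 1.69 CPM in NPC, so the iPS level of Klk1 exceeded that of NPC at least 158-fold, and the level in iPS cells in 2i did so at least 26.6-fold. Against the same floor NPC was at least 1.55-fold lower than ES cells in 2i, and these bounds cover counting error only. In 2i medium iPS exceeded ES cells by 3.98 ± 0.178 on the log2 scale (edgeR adjusted p = 1.54e-16). The fitted change of NPC against ES cells in 2i was -3.57 ± 0.672 (edgeR adjusted p = 3.12e-05), which depends on the prior count since NPC had no reads.

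Nat8l, the N-acetylaspartate synthase, had 256 and 218 CPM in iPS cells and 117 and 137 in NPC. It had 20.9 and 24.6 CPM in iPS cells in 2i, 4.77 and 6.06 in ES cells, and 4.45 and 5.00 in ES cells in 2i. NPC were thus the second highest group, the iPS libraries lay above them without overlap, and the ES groups overlapped. The iPS mean was 43.8 times the ES mean but 1.87 times the NPC mean. In 2i medium iPS exceeded ES cells by 2.23 ± 0.178 on the log2 scale (edgeR adjusted p = 6.13e-11). NPC exceeded ES cells in 2i by 4.70 ± 0.177 (edgeR adjusted p = 1.66e-20), and its fall of 10.4-fold from iPS cells to iPS cells in 2i left it well below NPC.

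Heg1, the junction receptor, had 71.8 and 65.2 CPM in iPS cells by its longer model, 23.4 and 20.3 in NPC and 13.1 and 12 in iPS cells in 2i. ES cells had 1.91 and 0.527 CPM, from 34 and 2 reads, and ES cells in 2i 1.32 and 1.43. The 3 upper groups did not overlap, while the ES groups did, and the level in ES replicate 2 rests on the 2 reads. The iPS mean was 56.2 times the ES mean and 3.13 times the NPC mean. In 2i medium iPS exceeded ES cells by 2.98 ± 0.255 on the log2 scale (edgeR adjusted p = 2.65e-10), and NPC exceeded ES cells in 2i by 3.75 ± 0.282 (edgeR adjusted p = 5.10e-13). The shorter model had fewer reads, with 15.7 and 11.4 CPM in iPS cells, 4.51 and 3.04 in iPS cells in 2i and 3.35 and 3.77 in NPC. It had 0.730 and 0 CPM in ES cells and 0.752 and 1.10 in ES cells in 2i. Its log2 fold change of iPS over ES cells in 2i was 1.73 ± 0.381 (edgeR adjusted p = 0.00105), in the direction of the longer model.

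Dmrta2, the forebrain transcription factor, had 74.9 and 55.2 CPM in iPS cells and 45.2 and 57.1 in NPC, so these groups overlapped. It had 10.7 and 10.9 CPM in iPS cells in 2i, 2.94 and 3.57 in ES cells in 2i and 1.85 and 2.63 in ES cells. The iPS mean was 29 times the ES mean and 1.27 times the NPC mean, a difference within the spread of the libraries. In 2i medium iPS exceeded ES cells by 1.66 ± 0.230 on the log2 scale (edgeR adjusted p = 2.58e-06), the smallest such change of the 6 genes. NPC exceeded ES cells in 2i by 3.91 ± 0.226 (edgeR adjusted p = 8.52e-16).

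In 2i medium, where neither group had entered the iPS over ES difference, all 6 genes were higher in iPS than in ES cells. Of the 11031 models tested in this comparison, 13.7% were higher and 25.3% were called in either direction at an adjusted p under 0.05. The median log2 fold change of the genes was 3.20, against -0.01 over all models. The abundance limit over all 10 libraries favours genes with high levels in iPS cells in 2i, and Klk1 and Heg1 lay close to it. These calls are thus not fully independent of the choice. The count of all models called, 2794, fell to 1469 without ES 2i replicate 1, to 1476 without iPS 2i replicate 1 and to 1686 with limma on the deposited log2 values, while all 6 genes stayed called. In each of them both iPS libraries in 2i lay above both ES libraries in 2i, an order whose share over all models was not computed. The ratios of means were 10.9 for Ptprv, 14.9 for Shisa3, 17.2 for Klk1, 4.81 for Nat8l, 9.15 for Heg1 and 3.30 for Dmrta2. Outside 2i the ratios of Ptprv, Shisa3 and Klk1 were close, at 74.1, 69.9 and 68.3, so no order of these genes is read from them.

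**Figure D3:**
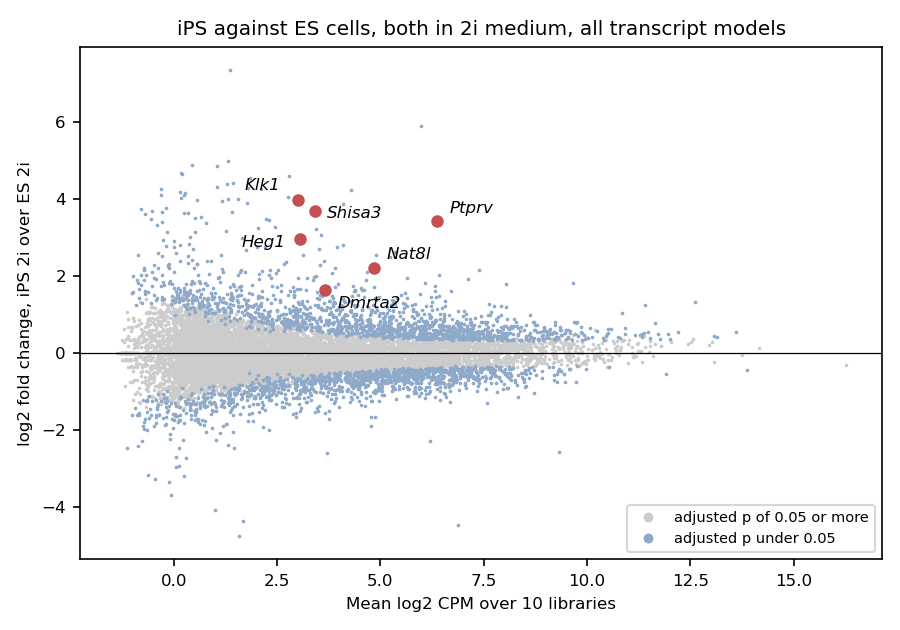
Log2 fold change of iPS over ES cells, both in 2i (y axis), against mean log2 CPM over 10 libraries (x axis) for the 11031 models tested. Blue points have an adjusted p under 0.05, grey points do not, and red points are the 6 genes, which lie between 1.66 (Dmrta2) and 3.98 (Klk1).

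Set against the source cells, the genes divided. In NPC against ES cells in 2i, 5 were higher and Klk1 was lower, where 64.9% of all models were called, 29% higher and 35.9% lower. In iPS cells in 2i against NPC, Ptprv, Shisa3 and Klk1 were higher and Nat8l, Heg1 and Dmrta2 lower, where 59.4% of all models were called, 33.4% higher and 26% lower. Ptprv was higher by 0.90 ± 0.156 (edgeR adjusted p = 9.98e-06) and Shisa3 by 1.42 ± 0.270 (3.66e-05) on the log2 scale. Nat8l fell by 2.47 ± 0.162 (2.44e-14) and Dmrta2 by 2.26 ± 0.217 (1.89e-10) from NPC to iPS cells in 2i. The change of Heg1 was -0.77 ± 0.246 (edgeR adjusted p = 0.00828). It lost its call without NPC replicate 1 (-0.66, adjusted p = 0.0550), without NPC replicate 2 (-0.85, 0.0694), without iPS 2i replicate 2 (-0.60, 0.112) and with limma on the deposited log2 values (-0.81, 0.0684). Over all 17 alternatives its adjusted p reached at most 0.112. Its shorter model had -0.00 ± 0.229 there (edgeR adjusted p = 0.996). These 3 comparisons share their libraries in pairs, so their values are set side by side and not counted as separate support. The abundance limit also favours genes with high levels in NPC.

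**Figure D4:**
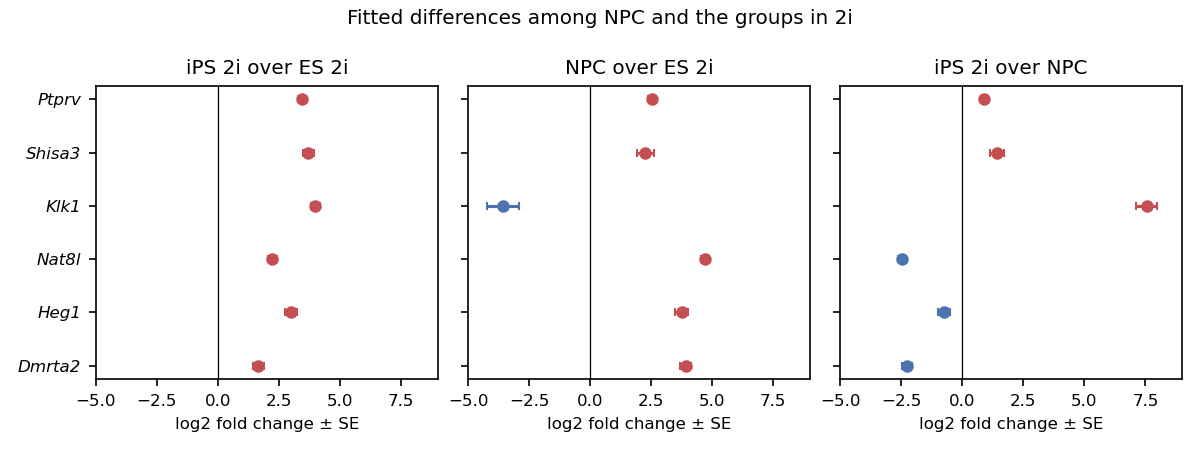
Fitted log2 fold change (x axis, bars are SE) of the 6 genes in the 3 comparisons among NPC and the groups in 2i; red is higher and blue lower in the first-named group. All 6 are higher in iPS over ES cells in 2i; Klk1 is the only one of the 6 below 0 in NPC over ES cells in 2i, and its values against NPC rest on a group with 0 reads.

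The genes were chosen near the top of the rise of iPS over ES cells, a comparison in which 52.9% of all models were called, 25.9% higher and 26.9% lower. Among the 5032 named models whose log2 CPM averaged 3 or more across libraries, the fitted rises were 6.23 for Ptprv, 6.04 for Shisa3, 6.02 for Klk1, 5.47 for Nat8l, 5.22 for Heg1 and 4.84 for Dmrta2 on the log2 scale. Just outside came Adcy2, an adenylate cyclase, at 4.71, and Prkcdbp, a caveolar protein, at 4.58. The predicted gene Gm3168, named after its values were seen, rose more than any of the 6, by 8.59, and is not among them. Klk1 and Heg1 were close to the abundance limit, with mean log2 CPM of 3.01 and 3.06. Below the limit, 34 named models rose more than Dmrta2, and among them Wdfy4 at 9.46 and Abca13 at 7.29 rose more than any of the 6. Vax2 had 6.15 and Tox3 5.39, and all 4 were named after their values were seen.

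The patterns of the genes over the 10 libraries were alike to different degrees. Nat8l and Dmrta2 had a Pearson r of 0.991 between their log2 CPM, and Ptprv and Shisa3 had 0.979. Klk1 stood apart, with r of 0.184 to Dmrta2 and 0.245 to Nat8l. These correlations are descriptions over 10 libraries that form 5 pairs of replicates, and all share the high iPS libraries that chose the genes.

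The named models most like each gene by the same measure were as follows. Lman2 and Edem2, both of glycoprotein handling in the secretory pathway, had r = 0.986 with Ptprv, and Syngr2, a vesicle protein, had 0.984. For Shisa3 they were the protease gene Ctse (0.986), the polysialyltransferase gene St8sia2 (0.985) and Ptprv itself. St8sia2 had means of 0.272 CPM in ES cells, 0.0325 in ES cells in 2i and 1.43 in NPC, so its r rests on few reads in these groups. Ctse had mean levels of 640 CPM in iPS cells, 103 in iPS cells in 2i, 79.5 in NPC, 32.9 in ES cells and 25.0 in ES cells in 2i. Klk1 was most like the potassium channel gene Kcnk7 (0.996), the LIM-domain gene Crip1 (0.993) and the growth factor gene Mst1 (0.989). Crip1 shared the low NPC level, with 3.99 CPM in NPC and 358 in iPS cells. Kcnk7 was low throughout, with means of 4.57 CPM in iPS cells, 1.79 in iPS cells in 2i, 0.544 in ES cells, 0.480 in ES cells in 2i and 0 in NPC. Its r thus rests on few reads.

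Nat8l was most like 5031439G07Rik (0.994), 2310039H08Rik (0.992) and the phosphatase gene G6pc3 (0.992). The first of these had 422 CPM in iPS cells, 275 in NPC and 68.3 in ES cells in 2i, a narrower range than that of Nat8l. For Heg1 they were Fam174b (0.988), Adcy2 (0.985) and BC106167 (0.982), and for Dmrta2 the kinase gene Pskh1 (0.995), the F-box gene Fbxw8 (0.995) and Ttc28 (0.993). Ttc28, like Dmrta2, was about level in NPC and iPS cells, at 62.0 and 58.2 CPM. High r does not mean an equal size of change: Pskh1 ranged from 63.2 CPM in ES cells to 168 in iPS cells.

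The families and pathways around the genes were read without the genes themselves in iPS over ES cells in 2i, where 25.3% of all models were called, 13.7% higher and 11.6% lower. Of 20 receptor tyrosine phosphatases, 4 were measured, and 1 rose and 1 fell in iPS over ES cells in 2i, with a median of 0.60 on the log2 scale against -0.01 over all models. Ptprs rose by 1.03 ± 0.257 (edgeR adjusted p = 0.00331) and Ptprj fell by 0.89 ± 0.241 (0.00647). Ptprs also had its second highest mean in iPS cells, at 49.3 CPM, against 97.3 in NPC and 6.07 in ES cells. None of the 3 measured of 7 other Shisa genes was called in 2i, with a median of 0.53.

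Of 16 Frizzled, LRP and FGF receptor genes, on whose products Shisa proteins act, 9 were measured, 1 was higher and 1 lower, and their median was 0.00. Fzd10 rose by 0.52 ± 0.148 (edgeR adjusted p = 0.00963) and Fzd3 fell by 0.88 ± 0.212 (0.00253). Of 21 other Wnt inhibitors 11 were measured, and 1 rose and 3 fell, with a median of -0.03. Kremen1, a co-receptor of Dickkopf proteins, rose by 0.42 ± 0.148 (edgeR adjusted p = 0.0362). Notum, a Wnt deacylase, fell by 1.18 ± 0.224 (0.000214), Axin2, a Wnt target and scaffold, by 0.68 ± 0.225 (0.0254) and Sfrp1, a secreted Wnt binder, by 0.62 ± 0.124 (0.000386).

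Among 30 kallikrein and kinin genes, Klk8, Klk10 and the kinin receptor gene Bdkrb2 were measured, and none of the 3 was called in 2i. Of 17 genes of N-acetylaspartate and aspartate metabolism 10 were measured, with 3 higher, 2 lower and a median of -0.09. Ass1, argininosuccinate synthase, rose by 2.09 ± 0.341 (edgeR adjusted p = 2.81e-05) and Asl, the next enzyme of that route, by 0.82 ± 0.143 (7.67e-05). The aspartate and glutamate carrier genes Slc1a3 and Slc25a12 fell by 1.70 ± 0.487 (edgeR adjusted p = 0.0101) and by 0.60 ± 0.129 (0.000802).

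Of 17 genes around HEG1 and the CCM complex 10 were measured, and 3 fell while none rose, with a median of -0.21. Rap1b, a small GTPase that acts with KRIT1, fell by 0.84 ± 0.138 (edgeR adjusted p = 3.20e-05), the transcription factor gene Klf2 by 0.74 ± 0.147 (0.000350) and Pdcd10, which encodes a CCM protein, by 0.57 ± 0.177 (0.0172). Neither measured gene of the 9 other DM-domain genes, Dmrt3 and Dmrtc2, was called. Of 18 forebrain patterning genes 7 were measured and 1 rose, Sox1, an early neural transcription factor, by 0.62 ± 0.140 (edgeR adjusted p = 0.00141). Sox1 had 255 CPM in iPS cells, 90.9 in NPC, 52.2 in iPS cells in 2i, 33.8 in ES cells in 2i and 22.9 in ES cells, so it too was highest in iPS cells. Outside 2i, 5 of these 7 genes were higher in iPS than in ES cells and 1 was lower, where 25.9% of all models were higher and 26.9% lower. In the same comparison, the phosphatases had 2 higher and 0 lower of 4, and the Shisa genes 2 and 1 of 3. The Frizzled, LRP and FGF receptors had 5 and 2 of 9, and the Wnt inhibitors 3 and 2 of 11. Kallikrein and kinin genes had 1 and 2 of 3, with a median of -1.56. Aspartate metabolism had 2 and 3 of 10, the CCM list 2 and 4 of 10, and DM-domain genes 1 and 0 of 2.

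Within 250 kb of their starts in mm9, 18 named models were measured beside 4 of the genes, 3 of them higher and 2 lower in iPS over ES cells in 2i, with a median log2 fold change of 0.27. Over all models 13.7% were higher and 11.6% lower, so this count is near that of any models. Heg1 and Dmrta2 had no measured neighbour in that window. Beside Ptprv, the lysosomal GTPase gene Arl8a at 38.3 kb rose by 0.82 ± 0.142 (edgeR adjusted p = 6.93e-05), and Lgr6 on the other side had 0.30 ± 0.399 (0.628). Beside Klk1 none of 5 was called, and the nearest, Snord88c at 24.4 kb, had 0.27 ± 0.357 (edgeR adjusted p = 0.617).

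Next to Shisa3, DQ569229 at 4.53 kb from its start rose by 1.95 ± 0.439 (edgeR adjusted p = 0.00143), at 0.714 CPM in iPS cells in 2i and 0 in ES cells in 2i. RefSeq gives Shisa3 a length of 6.11 kb, against 4.39 kb of the counted model, so DQ569229 starts within that length. On the other side C330024D21Rik had -0.08 ± 0.248 (edgeR adjusted p = 0.885). Beside Nat8l, AK189470 at 178 kb rose by 1.90 ± 0.253 (edgeR adjusted p = 1.31e-06), with 106 CPM in NPC, 18.1 in iPS cells, 9.49 in iPS cells in 2i and 2.31 in ES cells in 2i. Whsc2 on the other side had -0.30 ± 0.130 (edgeR adjusted p = 0.0909).

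**Figure D5:**
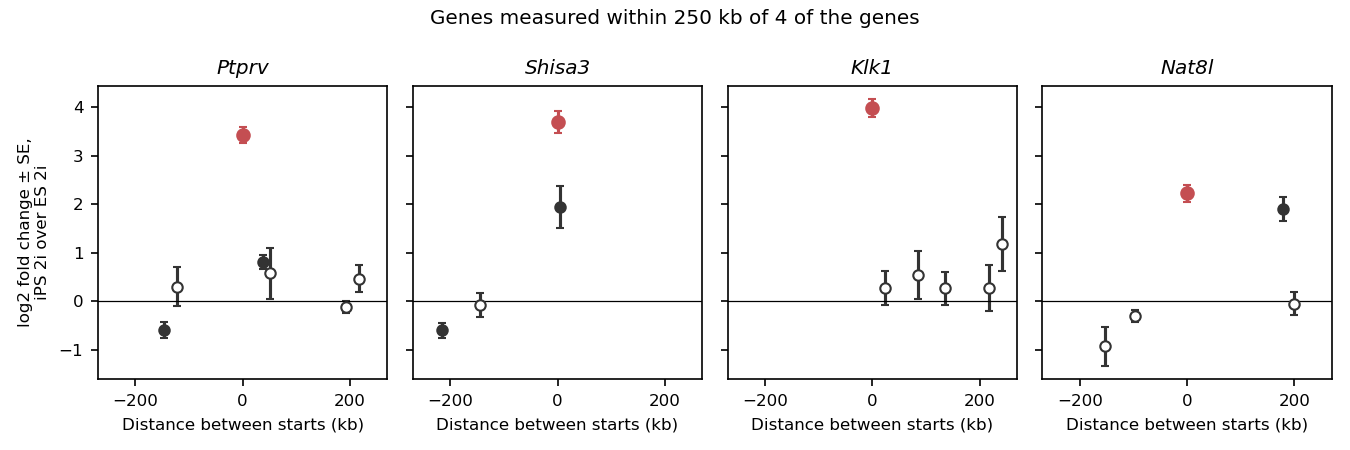
Log2 fold change of iPS over ES cells in 2i (y axis, bars are SE) against the distance between starts in kb (x axis) for named models within 250 kb of Ptprv, Shisa3, Klk1 and Nat8l. Red points are the genes, filled black points neighbours with an adjusted p under 0.05, open points the rest; each of the 18 neighbours lies below its gene, at 1.95 or less.

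Markers of the labelled and of other cell types were read in the same libraries. The 10 measured of 12 pluripotency markers summed to 5773 to 7972 CPM in the 4 pluripotent groups and 257 to 261 in NPC, where 8 of them, Pou5f1 included, were at 0. The sum hides opposite differences outside 2i, where 8 of the 10 were lower and 2 higher in iPS than in ES cells, against 26.9% lower and 25.9% higher of all models. Sox2 had a mean of 114 CPM in iPS and 527 in ES cells, Esrrb 0.340 and 4.32, and Pou5f1 3405 and 1139. The part of these differences in the results was not tested. The 6 measured of 12 neural progenitor markers summed to 7150 to 8489 CPM in NPC and to 65 to 67.1 in iPS cells, no higher than the 81.1 to 89.5 in ES cells. In 2i they summed to 68.5 to 74.8 in iPS and 36.0 to 37.5 in ES cells, with 4 of the 6 higher and 1 lower, against 13.7% and 11.6% of all models. Their part in the results there was not tested. The summed pluripotency markers thus separated the pluripotent groups from NPC, as labelled. Sox2 was an exception among them, with a higher mean in NPC, at 249 CPM, than in iPS cells, at 114. It made up most of the NPC sum. The summed neural progenitor markers separated NPC from the pluripotent groups, as labelled.

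Fibroblast markers had higher sums in iPS than in ES cells, both in 2i and outside it. Their sums were lower in 2i, and ES cells outside 2i lay above iPS cells in 2i. The 10 measured of 16 summed to 3104 to 3264 CPM in iPS cells, 1335 to 1516 in ES cells, 1035 to 1044 in iPS cells in 2i, 511 to 523 in ES cells in 2i and 162 to 200 in NPC, with none at 0 in both libraries of a group. The contractile genes Acta2 and Tagln were the largest part in iPS cells, at 1556 to 1679 and 651 to 763 CPM. In 2i, 8 of the 10 were higher in iPS than in ES cells and 0 lower, against 13.7% higher and 11.6% lower of all models. Acta2, for example, rose by 1.20 ± 0.142 on the log2 scale (edgeR adjusted p = 1.77e-07). Outside 2i, 7 were higher and 1 lower, against 25.9% and 26.9% of all models. The part of fibroblast markers in the results was not tested. The 4 measured of 9 trophoblast markers, Krt8, Krt18, Ascl2 and Cdx2, summed to 711 to 893 CPM in iPS cells, 323 to 361 in ES cells, 65.2 to 75.8 in iPS cells in 2i, 39.2 to 41.7 in ES cells in 2i and at most 0.837 in NPC. The keratins Krt8 and Krt18 carried these sums, while Ascl2 was lower in iPS than in ES cells, at 4.32 and 13.8 CPM. The neuron markers Tubb3 and Stmn2, the 2 measured of 7, summed to 1094 to 1310 CPM in iPS cells and 358 to 411 in ES cells. They summed to 526 to 553 in iPS cells in 2i, 425 to 460 in ES cells in 2i and 35.2 to 36.5 in NPC. Tubb3 carried the difference in 2i, while Stmn2 was not called there, at 175 to 189 CPM in iPS and 201 to 205 in ES cells. The 5 of 12 primitive endoderm markers with a model summed to 201 to 228 CPM in iPS cells and 192 to 219 in ES cells. Of the 4 kept by the filter, 3 were lower in iPS cells outside 2i, Lama1 among them, and Col4a2 was higher. In 2i, 1 was higher and 1 lower. The 3 of 8 primitive streak and mesoderm markers with a model summed to at most 15.3 CPM in any library. The part of trophoblast, neuron, primitive endoderm and primitive streak markers in the results was not tested. Endothelial markers, those of the cells in which Heg1 is best known, were at or under 6.81 CPM in sum over the 3 measured of 12 in every library, with Tie1 at 0 in NPC. Of 6 osteoblast markers only Alpl was measured, which pluripotent cells also express.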

How the data were processed

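The authors deposited whole-number read counts per UCSC transcript model, in the format of HTSeq, for 10 RNA libraries. The submitters' processing notes name TopHat2 2.1.0, TopHat, HTSeq and mm9. How ambiguous reads and strand were handled is not given in the sources used here, so counts of antisense pairs are uncertain. The kit was stranded and removed ribosomal RNA, per the labels. The authors also deposited a table of log2 values with gene names and positions, which equal log2(count + 1) plus a constant per library, with an upper quartile of 7.43 in each. It gave names, positions and an alternative test with limma 3.58.1 on the log2 values as deposited, where a pseudocount on linear values had been planned.

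Counts of all 10 libraries were fitted with edgeR 4.0.16 in R 4.3.3 (quasi-likelihood F test, TMM, low-count filter by expression, prior count 2, group as the only term, 5 residual degrees of freedom). The filter kept 11031 models, all 7 of the 6 genes among them, and left out 44388. Summary and spike-in entries stayed out. Benjamini-Hochberg adjustment ran over all models kept, with a threshold of 0.05. SE is the log2 fold change over the square root of F. A symbol stands for its model with the highest mean count. The script was tested on simulated data. The 6 genes and the lists were chosen with earlier results of these data known. Beside the 6 genes, the text names the next 2 in order of rise, the 3 models most correlated with each, up to 4 called genes of each list with the largest change in 2i, and the nearest neighbour on each side. Promoters are from RefSeq, GRCm38.p6. Alternatives were RLE scaling, DESeq2 1.42.0, no filter, 6 libraries only, a replicate block, each replicate left out and limma. Chromosome folding data were not used, since no gene lay in a measured region.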

Additional observations from a re-analysis of the deposited data

Results flagged for a closer look

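Dmrta2 moved in opposite directions with 2i medium in the ES and iPS cells. Its mean CPM in 2i over that outside 2i was 0.54 on the log2 scale in ES cells, where both 2i libraries (2.94 and 3.57 CPM) lay above both others (1.85 and 2.63 CPM). In iPS cells it was -2.59, where both 2i libraries (10.7 and 10.9 CPM) lay below both others (74.9 and 55.2 CPM). The levels in ES cells rest on 33 and 10 reads outside 2i and on 47 and 55 reads in 2i. The difference between these changes was not tested, since the libraries outside 2i chose the gene. That choice, by a high level in iPS and a low level in ES cells, itself favours such opposite moves. The share of all models with such opposite moves was not computed.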

How the results depend on the processing

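All 6 genes kept their direction and stayed past the threshold in iPS against ES cells in 2i, and in NPC against ES cells in 2i, under each of 17 alternatives. In iPS cells in 2i against NPC, 5 or 6 of them did, the exception being Heg1, whose values stand beside its result. In iPS against ES cells in 2i the highest adjusted p was 0.000579, for Dmrta2, whose log2 fold change ranged from 1.48 to 1.77. The count of models called there was 2794. It was 1686 with limma on the deposited log2 values and 1469 to 3127 with a replicate left out. The low end of 1469 was without ES 2i replicate 1, 1476 was reached without iPS 2i replicate 1, and 3127 without ES replicate 2; the cause was not tested. In NPC against ES cells in 2i the count of 7163 ranged from 5231 to 7688, and in iPS cells in 2i against NPC the count of 6551 ranged from 4609 to 6914. With the replicate number as a block the counts were 2697, 7084 and 6472. The replicate numbers did not pair the samples, as the deviations of same-numbered samples correlated at -0.0801 to 0.0722. Leaving out NPC replicate 1 and ES replicate 2, the 2 shallowest of their groups, was chosen after seeing the data and gave 2956, 6973 and 6134. Depth limits Klk1 in NPC, where 0 reads allow up to 2.51 and 0.869 CPM in the replicates, and Heg1 in ES replicate 2.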
